A study of Mus musculus with 4 samples.

Results

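The Hox cluster genes are the homeobox transcription factor genes of the mouse clusters A to D, and 38 of them were examined here by symbol. Of these, 33 had at least 1 probe set of their own, among 18193 genes with such a probe set on the array. Hoxb8 and Hoxd4 appeared only on probe sets that also name a neighbour (Hoxb7 and Hoxd3), and Hoxa6, Hoxc11 and Hoxc12 had no probe set under their names. In all, 51 probe sets named a Hox gene, of which 48 named 1 gene and 3 named a pair.

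Hox genes lie in a row within each cluster, and their order along the chromosome follows the order of their domains along the head-to-tail axis of the embryo. Genes of the same position in different clusters form a paralog group, numbered from the anterior end. The genes of the highest numbers act in the tail end, including the hindgut, from which the distal part of the colon derives. Outside their domains the clusters are kept silent by Polycomb complexes. Bmi1 and Mel18 (gene symbol Pcgf2) are alternative ring-finger subunits of Polycomb repressive complex 1, which is best known for holding Hox genes and the Cdkn2a locus off, and MLL complexes act in the opposite direction.

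RNA was measured on 4 Affymetrix mouse arrays, 1 for each of 4 genotypes on the C57BL/6 background. These were wild type (WT), Bmi1ΔIEC, Mel18ΔIEC, and the double knockout Bmi1ΔIEC Mel18ΔIEC (DKO), where IEC stands for intestinal epithelial cells. All mice were sex-matched, 6 to 8 weeks old, and had received azoxymethane, a colon carcinogen, at 10 mg/kg, followed after 5 days by 5 days on water with 3.5% dextran sulfate sodium, which injures the colon lining. This treatment is a model of colitis-associated colorectal cancer, and no untreated mice are part of the comparison. Colonic epithelial cells were shaken loose with EDTA on day 12, with no sorting step in the protocol. The driver of the deletion and the number of mice per array are not given in the sources used here. With 1 array per genotype no difference has a replicate check and no p-value or standard error can be given, which sets the precision of everything below.

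Levels below are given as RMA intensity, and a signed difference is the log2 of a ratio, so that 1 means 2-fold. A level counts as measurable when it reaches the floor, set at 33.4 intensity units, the median over the whole table. A gene counts as higher or lower by the size rule when it differs at least 2-fold and its higher value reaches the floor. Where the lower value lies under the floor, the size of a difference is not exact. For a gene with several probe sets the one that was brightest on average was used, and signals of different probe sets are not ranked against each other. The targeted genes showed no loss of signal by which to check the labels. The Bmi1 probe sets read 116 and 88.4 on the WT array and 334 and 339 on the Bmi1-labelled array. They read 160 and 135 on the Mel18-labelled and 432 and 399 on the DKO-labelled array. Both were thus brighter on the arrays whose labels name a Bmi1 deletion than on the others. The brighter Pcgf2 probe set lay between 30.2 and 39.8 on the 4 arrays. The place of these probes relative to the deleted exons is not given, so the arrays are called by their labels.

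Promoters of the genes with the largest differences are shown to let their base composition be seen, since CG-rich promoters are the usual places of Polycomb binding. Each is the run of 250 bases before a RefSeq transcription start (assembly GRCm38.p6), read 5′ to 3′ on the gene's strand, with CG dinucleotides in capitals. Hoxd10 and Hoxd11 lie on the plus strand at chr2:74691641-74691890 and, for the second Hoxd11 start, chr2:74682073-74682322. The first Hoxd11 start has its window at chr2:74679308-74679557, and Hoxd8, shown for contrast from the same cluster, at chr2:74704365-74704614, both on the plus strand. The Hoxa10 window is on the minus strand at chr6:52234940-52235189.
Hoxd10: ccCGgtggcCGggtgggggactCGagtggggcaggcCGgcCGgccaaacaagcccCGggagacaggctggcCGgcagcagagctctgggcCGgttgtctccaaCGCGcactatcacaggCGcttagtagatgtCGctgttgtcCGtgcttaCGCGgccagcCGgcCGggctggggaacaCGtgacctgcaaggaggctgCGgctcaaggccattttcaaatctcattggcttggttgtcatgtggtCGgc
Hoxd11, second start: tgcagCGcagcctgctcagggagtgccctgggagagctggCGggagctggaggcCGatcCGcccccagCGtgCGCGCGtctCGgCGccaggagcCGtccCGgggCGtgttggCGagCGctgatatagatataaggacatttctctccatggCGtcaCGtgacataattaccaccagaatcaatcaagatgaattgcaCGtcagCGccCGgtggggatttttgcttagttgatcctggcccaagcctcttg
Hoxd11, first start: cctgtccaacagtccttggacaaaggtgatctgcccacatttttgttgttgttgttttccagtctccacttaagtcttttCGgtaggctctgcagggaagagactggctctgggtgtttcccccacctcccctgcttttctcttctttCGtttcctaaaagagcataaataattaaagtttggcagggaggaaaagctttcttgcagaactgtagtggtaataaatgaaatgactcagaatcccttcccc
Hoxd8: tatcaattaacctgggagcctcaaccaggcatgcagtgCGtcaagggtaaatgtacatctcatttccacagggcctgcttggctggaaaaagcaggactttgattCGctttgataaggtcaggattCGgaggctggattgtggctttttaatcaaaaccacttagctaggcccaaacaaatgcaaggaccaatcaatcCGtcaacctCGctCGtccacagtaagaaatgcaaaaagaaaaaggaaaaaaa
Hoxa10: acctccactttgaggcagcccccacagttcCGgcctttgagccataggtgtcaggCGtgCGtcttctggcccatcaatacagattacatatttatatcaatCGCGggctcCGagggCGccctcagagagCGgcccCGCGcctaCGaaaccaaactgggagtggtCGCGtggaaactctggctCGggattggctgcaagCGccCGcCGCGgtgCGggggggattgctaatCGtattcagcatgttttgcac
The Hoxd10 window and the second Hoxd11 window each hold 20 CG dinucleotides, as does the Hoxa10 window, whereas the first Hoxd11 window holds 2 and the Hoxd8 window 6. The other Hoxa10 start, not printed, has 7. Other windows not printed hold 31 (Hoxd13), 35 (Hoxa13) and 13 (Hoxd9), and these genes stayed within 2-fold in the comparisons made. A link between CG count and the direction of a difference was not tested. Over 24 starts of 22 Hox genes the median was 12.5 CG per window, against 6 over 32851 mouse promoters, and 62.5% of the Hox windows held at least 10, against 37.8% of all. The letters TTTATG, a sequence that posterior Hox proteins bind, or CATAAA on the other strand, occurred in 5 of the 24 Hox windows (20.8%) and in 10.8% of all windows. Among the printed windows only the first Hoxd11 start has them. These matches describe letters and not bound sites.

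The measurable Hox genes were mostly posterior ones, and most of cluster C was not measurable. Of the 33 genes, 18 reached the floor on at least 1 array and 14 on all 4, and the other 15 stayed between 4.26 and 31.3 on every array. On a single array 15 (WT), 17 (Bmi1-labelled), 17 (Mel18-labelled) and 15 (DKO-labelled) reached it, 45.5% to 51.5% of the measured Hox genes, where 62.7% to 63.5% of all genes did. By cluster, 7 of 9 measured genes of cluster A reached the floor, 5 of 9 of cluster B, 1 of 7 of cluster C and 5 of 8 of cluster D. By paralog group, 4 of 10 measured genes of groups 1 to 4 reached it, 4 of 9 of groups 5 to 8, and 10 of 14 of groups 9 to 13, which are called anterior, central and posterior here.

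**Figure D1:**
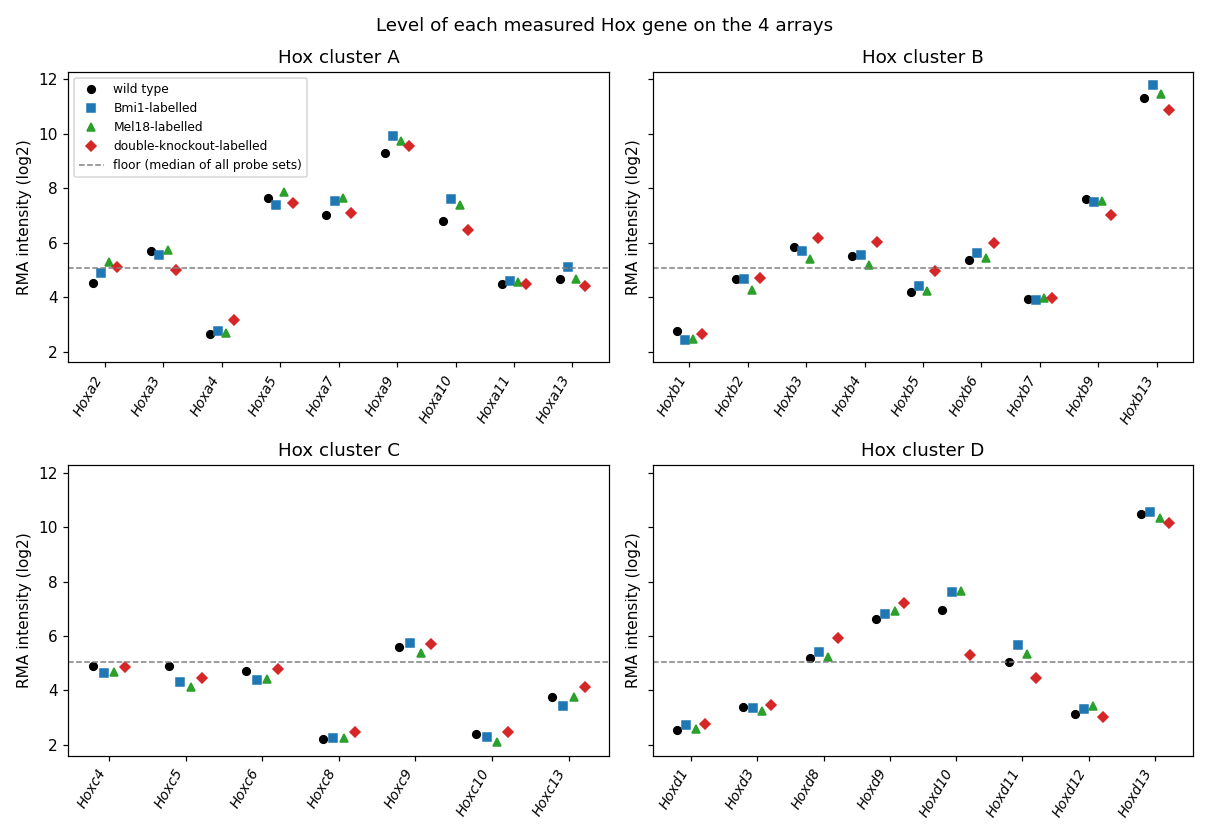
RMA intensity (log2) of each of the 33 measured Hox genes on the WT, Bmi1-labelled, Mel18-labelled and DKO-labelled arrays, in 1 panel per cluster and ordered by paralog group. Each symbol is 1 array, and the dashed line is the floor of 33.4 intensity units. In cluster C only Hoxc9 lies above the line, and Hoxd10 has the widest spread between the 4 arrays.

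Genes of paralog groups 13 and 9 stayed within 2-fold in the comparisons made. Hoxb13, a marker of the hindgut and its derivatives, read 2534 on WT, 3537 on the Bmi1-labelled, 2834 on the Mel18-labelled and 1899 on the DKO-labelled array. Hoxd13, which acts in the hindgut and the limb tip, read 1431, 1486, 1290 and 1137 in the same order. Hoxa13, its partner in the hindgut, lay near the floor, at 25.7, 34.7, 25.3 and 21.3.
Hoxa9, also known from blood-forming cells, read 633, 973, 842 and 745. Hoxb9, which patterns the thoracic skeleton, read 195, 179.5 (Bmi1-labelled), 183 and 129. Hoxc9 read 48.3, 54.1, 41.1 and 51.7. For Hoxb13, Hoxd13, Hoxa13 and Hoxb9 the DKO-labelled array was the dimmest of the 4, and for Hoxa9 the WT array was.

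The Hox genes past the size rule in a comparison were Hoxd10, Hoxd11 and Hoxa10. Hoxd10, which acts in the hindlimb and spinal motor neurons, read 125 on WT, 197 on the Bmi1-labelled, 200 on the Mel18-labelled and 39.9 on the DKO-labelled array. The DKO-labelled value is near the floor and the other 3 are well above it. Hoxd11, which acts in the forearm skeleton with its paralog Hoxa11, read 33.2, 50.4, 40.9 and 22.2, so its DKO-labelled value is under the floor. Hoxa10, known from the uterus and the lumbar skeleton, read 111, 195, 167 and 88.8 with its brighter probe set. Both single-knockout-labelled arrays were above WT and the DKO-labelled array below it for these 3 genes, with these probe sets.

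Of the 4 anterior and 4 central genes that reached the floor, 4 were brightest on the DKO-labelled array, Hoxb3, Hoxb4, Hoxb6 and Hoxd8. The share of all genes that were brightest on that array was not counted. Hoxd9, a posterior gene beside Hoxd10 and Hoxd8, was brightest there too, at 99.1 on WT, 111 and 120 on the single-knockout-labelled arrays and 148 on the DKO-labelled array. Hoxd8 read 36.6, 43.1, 37.9 and 60.9, Hoxb6 read 40.8, 49.1, 43.7 and 64.3, and Hoxb4, known from blood stem cells, read 45.1, 47.1, 36.5 and 65.4. Hoxb3, a hindbrain gene, read 57.8, 52.1, 42.1 and 71.3.
Hoxa7 read 129, 187, 202 and 136, with both single-knockout-labelled arrays above the other pair. Hoxa5, which acts in the gut and lung mesenchyme, read 199.5 on WT, 167.5 on the Bmi1-labelled, 233 on the Mel18-labelled and 174 on the DKO-labelled array. Hoxa3, needed for the thymus and parathyroid, read 52.4, 46.8, 53.3 and 31.7, and Hoxa2, needed for the second pharyngeal arch, read 22.8, 29.8, 38.9 and 34.5. Between the WT and DKO-labelled arrays these 2 anterior genes of cluster A differed in opposite directions.

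The first comparison sets the Bmi1-labelled array against WT. On the Bmi1-labelled array 0 of 17 Hox genes tested were higher than on WT by the size rule, where 5.76% of all genes were, and 0 were lower, where 2.86% were. At 1.5-fold, 4 were higher, Hoxa9 (0.62), Hoxa10 (0.81), Hoxd10 (0.66) and Hoxd11 (0.60), against 17.8% of all genes, and 0 were lower, against 7.53%. The median log2 difference of the Hox genes was 0.23, and of all genes tested 0.13. That all-gene median was 0.22 with each array centred on its median and -0.12 with each array centred on its genes at the floor, so a difference of this size has no fixed sign for the array as a whole.

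The second comparison sets the Mel18-labelled array against WT. On the Mel18-labelled array 0 of 17 Hox genes were higher than on WT by the size rule (3.15% of all genes) and 0 lower (2.5%). At 1.5-fold, 4 were higher, Hoxa2 (0.77), Hoxa7 (0.65), Hoxa10 (0.59) and Hoxd10 (0.68), where 11.8% of all genes were, and 0 were lower, where 6.28% were. The medians were 0.16 for the Hox genes and 0.07 for all genes. Hoxa2 passed from below the floor on WT to above it here.

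The third comparison sets the DKO-labelled array against WT, and 1 of 16 Hox genes differed by the size rule. Hoxd10 was 3.12-fold lower on the DKO-labelled array than on WT (-1.64), where 2.19% of all genes were lower, and 0 were higher, where 2.13% were. At 1.5-fold, 3 were higher, Hoxa2 (0.60), Hoxb6 (0.66) and Hoxd8 (0.73), against 6.13% of all genes, and 3 were lower, Hoxa3 (-0.73), Hoxb9 (-0.59) and Hoxd10, against 6.56%. The Hox median was 0.09 and the all-gene median -0.01. All 3 comparisons with WT share the WT array, so 1 array's error enters each of them.

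**Figure D2:**
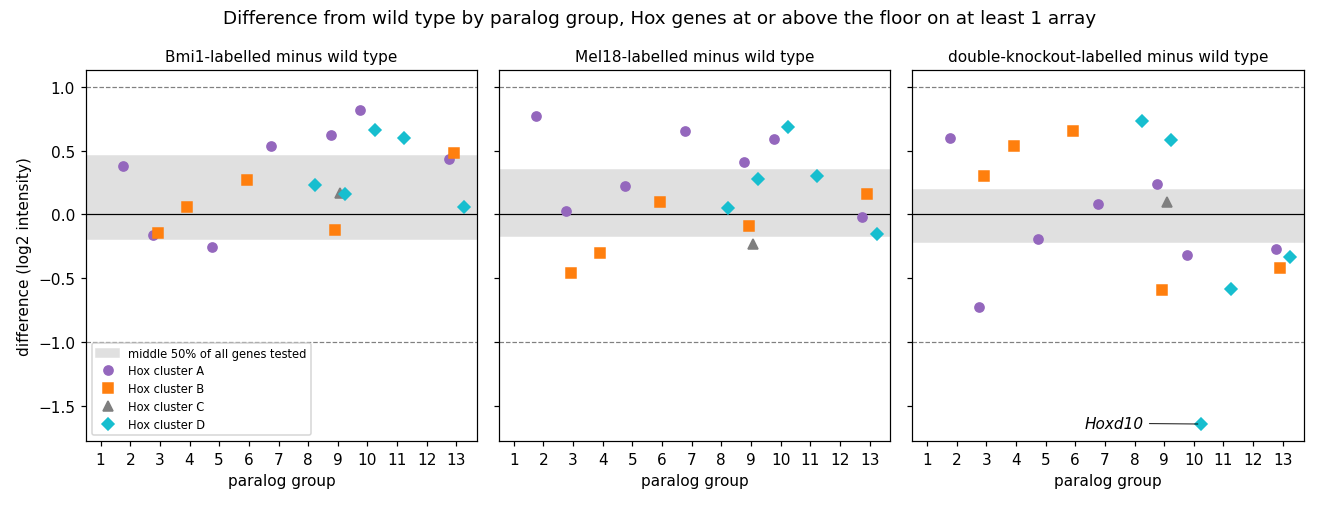
Difference from WT (log2 intensity) against paralog group for the 18 Hox genes that reached the floor on at least 1 array, with 1 panel per knockout-labelled array and symbols by cluster. The grey band holds the middle 50% of all genes tested and the dashed lines mark 2-fold. Hoxd10, at -1.64 in the DKO-labelled panel, is the single point past a dashed line.

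The last comparisons set the DKO-labelled array against each single-knockout-labelled one. Against the Bmi1-labelled array, 3 of 18 Hox genes were lower, where 7.96% of all genes were: Hoxd10 (-2.31), Hoxd11 (-1.18) and Hoxa10 (-1.13). None was higher, where 4.3% of all genes were. At 1.5-fold Hoxa13 (-0.71) and Hoxb13 (-0.90) joined them, 5 of 18 lower against 21.3% of all genes, and 0 were higher against 9.92%. The Hox median was -0.39 and the all-gene median -0.14.
Against the Mel18-labelled array, 1 of 17 Hox genes was lower, Hoxd10 (-2.32), where 4.53% of all genes were, and 0 were higher, where 3.84% were. At 1.5-fold, 4 were lower, Hoxa3 (-0.75), Hoxa10 (-0.91), Hoxd10 and Hoxd11 (-0.88), against 14.1%, and 3 were higher, Hoxb3 (0.76), Hoxb4 (0.84) and Hoxd8 (0.68), against 8.62%. These 2 comparisons share the DKO-labelled array. Hoxd10 was the one Hox gene past the size rule in each comparison that involves that array, and its 3 differences rest on the same low DKO-labelled value of 39.9.

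Set out by position along the clusters, the 33 measured genes comprise 10 anterior, 9 central and 14 posterior ones, with no filter on level. These position groups were chosen after the values were seen. On the DKO-labelled array against WT the median difference was 0.14 for the anterior, 0.08 for the central and -0.20 for the posterior genes, of which 8 were below 0 and 6 above. Against the Bmi1-labelled array the medians were 0.22, 0.19 and -0.39, with 11 of 14 posterior genes below 0, and against the Mel18-labelled array 0.21, 0.31 and -0.22, with 10 of 14 below. Over all genes, with no filter on level, the medians were -0.004 against WT, -0.01 against the Bmi1-labelled and -0.004 against the Mel18-labelled array. Over the genes tested with the floor they were -0.01, -0.14 and -0.09 in the same order.
On the Bmi1-labelled array against WT the medians were -0.02, 0.06 and 0.17, and on the Mel18-labelled array -0.19, 0.04 and 0.12, with 11 and 8 of 14 posterior genes above 0. The all-gene medians there were 0.01 and 0.00, or 0.13 and 0.07 over the genes tested with the floor. The Spearman correlation of the difference with the paralog number, across all 33 genes, was 0.36 (Bmi1-labelled), 0.30 (Mel18-labelled) and -0.29 (DKO-labelled) against WT. Over the 18 genes that reached the floor on at least 1 array it was 0.48, 0.06 and -0.48, but Hoxa13 and Hoxd11 are among those through single-knockout-labelled arrays only, so the choice of the 18 bears on their signs. Many of the 33 lie under the floor, the points share their 2 arrays and several are neighbours in a cluster, so these are descriptions with no test.

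Departure from additivity was read, in log2 units, as the gap between DKO and WT less the sum of the gaps between each single knockout and WT. It was -1 or less for 5 of 18 Hox genes (27.8%), where 18.6% of all genes at the floor were, and 0 were at 1 or more, where 8.7% were. The 5 were Hoxd10 (-2.99), Hoxa10 (-1.73), Hoxd11 (-1.48), Hoxa7 (-1.10) and Hoxb13 (-1.06). For Hoxd10 the single-knockout-labelled arrays were 0.66 and 0.68 above WT and the DKO-labelled array 1.64 below it. Hoxd11 reached the floor on the single-knockout-labelled arrays only. Each such value takes its error from 4 single arrays. Its median was -0.47 over the Hox genes and -0.21 over all genes at the floor. Centring the arrays moves it by the same amount for every gene, and the count was not taken under the alternatives. Hoxa7 and Hoxb13 lie close to the limit of -1. The Hoxa10 value rests on the brighter probe set, since the second was above WT on all 3 knockout-labelled arrays (0.11, 0.63 and 0.59).

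Where a gene has several probe sets, they did not always read alike. Of 11 such genes, 5 had probe sets that all differed in 1 direction between the DKO-labelled and WT arrays and 6 did not, though among the 6 Hoxc5 and Hoxc6 lay under the floor throughout. The second Hoxa10 probe set read 29.7, 32.0, 46.0 and 44.7, so it was higher on the DKO-labelled array than on WT and on the Bmi1-labelled array, and the Hoxa10 call rests on the brighter probe set. The 2 Hoxa9 probe sets gave differences of 0.24 and 0.24 from WT, the 2 Hoxa5 probe sets -0.41 and -0.19, and the 2 Hoxd8 probe sets 0.66 and 0.73, the first of these under the floor.
The second Hoxb3 probe set read 18.1 on WT, 34.6 and 25.1 on the single-knockout-labelled arrays and 54.8 on the DKO-labelled array. Its difference from WT was 1.60, past 2-fold, where the chosen Hoxb3 probe set gave 0.30. The dimmer Hoxd13 probe set read 39.6, 52.1, 35.2 and 42.6, with a difference of 0.10 against -0.33 for the brighter one. The 4 Hoxa3 probe sets ran from -0.73 to 0.03, and the second Hoxb4 probe set gave -0.04 where the first gave 0.53. Hoxd10 and Hoxd11 have 1 probe set each, so their calls cannot be set against a second one.

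**Figure D3:**
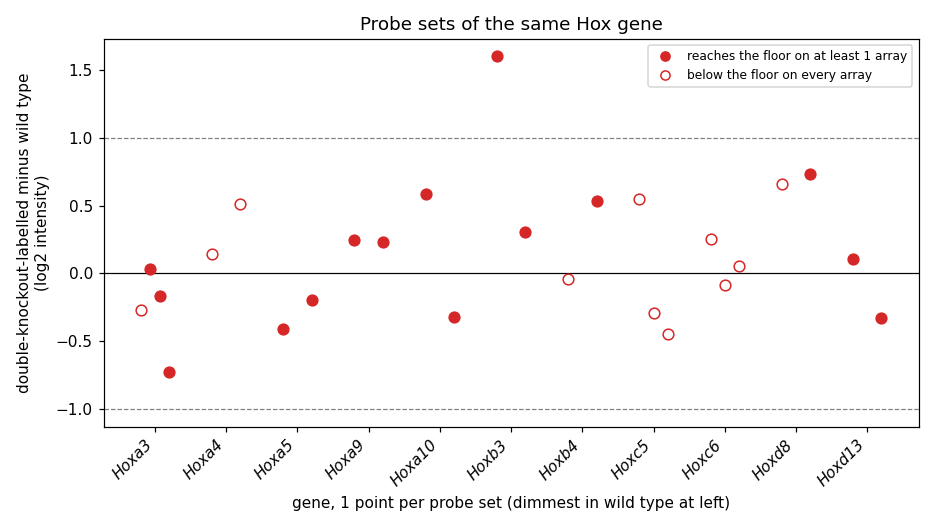
Difference between the DKO-labelled and WT arrays (log2 intensity) for every probe set of the 11 Hox genes that have more than 1, with filled circles for probe sets that reach the floor on at least 1 array and open circles for those that do not. Dashed lines mark 2-fold. The points of Hoxa10 lie at -0.32 and 0.59, on opposite sides of 0, and 1 Hoxb3 probe set lies at 1.60.

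With the chosen probe sets, no Hox gene that was below the floor on WT became bright on a knockout-labelled array. Of the 18 such genes, Hoxa13 and Hoxd11 reached the floor on the Bmi1-labelled array, Hoxa2 and Hoxd11 on the Mel18-labelled array and Hoxa2 on the DKO-labelled array, each by less than 2-fold. Of all 6647 genes below the floor on WT, 5.84% reached it on the Bmi1-labelled, 4.75% on the Mel18-labelled and 4.62% on the DKO-labelled array. On the DKO-labelled array 67 of them (1.01%) did so by at least 2-fold. The 15 genes under the floor on every array (Hoxa4, Hoxa11, Hoxb1, Hoxb2, Hoxb5, Hoxb7, Hoxc4, Hoxc5, Hoxc6, Hoxc8, Hoxc10, Hoxc13, Hoxd1, Hoxd3 and Hoxd12) differed from WT on the DKO-labelled array by -0.45 to 0.78, the top value being Hoxb5 at 18.2 and 31.3. The 3 probe sets shared by Hoxb7 with Hoxb8 or Hoxd3 with Hoxd4 read from 6.84 to 34.2.
Cdkn2a, the other classical Polycomb target, read 10.6, 11.9, 11.7 and 662 on the same 4 arrays, and its neighbour Cdkn2b 282, 491, 648 and 817. Cdkn2a thus went from under the floor to well above it on the DKO-labelled array, and none of the 33 Hox genes did with its chosen probe set. The second Hoxb3 probe set, which was not the chosen one, went from 18.1 on WT to 54.8 on the DKO-labelled array (1.60).

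Transcripts and genes beside the clusters were read from lists. Of 18 listed noncoding RNAs of the clusters, 3 were measured and none passed the size rule. By comparison and direction, 2.13% to 7.96% of all genes passed it. Hoxa11os, antisense to Hoxa11, read 628, 760, 756 and 434 with its brighter probe set, 0.53 lower on the log2 scale on the DKO-labelled array than on WT. Its other probe set lay under the floor, from 4.67 to 6.50, and differed by 0.15 in the opposite direction. Hoxa11 itself lay under the floor, at 22.3 to 24.4. Hoxb5os read 65.9, 73.3, 66.5 and 64.8, and Hoxd3os1 21.5, 21.0, 22.2 and 37.0. The sources used here do not say which strand these probes detect.
Of 23 genes that border the clusters, 16 reached the floor. Calcoco1, beside cluster C, read 28.4 on WT and 64.2 on the Bmi1-labelled array. It was the one called there, where 5.76% of all genes were higher and 2.86% lower. Hnrnpa1, an RNA-binding protein gene near cluster C, read 856, 1277, 1366 and 597, lower on the DKO-labelled than on both single-knockout-labelled arrays (-1.10 and -1.19). Of all genes 7.96% and 4.53% were lower in these comparisons. On the DKO-labelled array against WT 0 of 16 were called, where 2.13% of all genes were higher and 2.19% lower. The 16 ran from Cbx5 (-0.55) to Calcoco1 (0.42).

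Among TALE homeobox genes and regulators of Hox genes, the size rule was passed by Tgif1 and by 4 genes of the retinoic acid pathway. By comparison and direction, 2.13% to 7.96% of all genes passed it. Of 11 TALE genes, a homeodomain class whose Pbx, Meis and Pknox members bind DNA with Hox proteins, 7 reached the floor. Tgif1, which is not among those members, was the only one called, 83.1 on WT and 189 on the Bmi1-labelled array (1.18). On the DKO-labelled array against WT the 7 TALE genes ran from Pbx3 (-0.41) to Meis2 (0.57). Of 12 measured members of the MLL and Menin complexes, which place the activating histone mark at Hox genes, 0 were called in any comparison, and against WT they ran from Dpy30 (-0.45) to Ash2l (0.34) on the DKO-labelled array.
Of 16 genes of the retinoic acid pathway, which sets Hox expression in the embryo, 9 reached the floor. Aldh1a3, a retinoic acid synthesis enzyme, read 148, 33.4, 55.4 and 129, lower on both single-knockout-labelled arrays than on WT and on the DKO-labelled array. Aldh1a1, another such enzyme, was higher on the Bmi1-labelled array, at 522, than on WT (249) and the DKO-labelled array (206). Rdh10, which makes the precursor of retinoic acid, was higher on the DKO-labelled array than on the single-knockout-labelled ones (930 against 360 and 372). Dhrs3, which runs the reaction backwards, read 165, 253, 289 and 127, lower on the DKO-labelled than on the Mel18-labelled array.

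Among ParaHox genes and regional factors of the gut, Pdx1 and Gata4 were higher on the DKO-labelled array by the size rule. Of all genes 2.13% (against WT), 4.3% (against the Bmi1-labelled array) and 3.84% (against the Mel18-labelled array) were higher on it. Cdx1 and Cdx2, which mark the intestine and act on Hox genes, read 926, 1197, 1312 and 672 for Cdx1 and 394, 398, 489 and 458.5 for Cdx2, and neither was called. Pdx1, a ParaHox gene of the duodenum and pancreas, read 25.9, 58.8, 23.9 and 208.5, and was called on the Bmi1-labelled array too, with a WT value under the floor. Gata4, a marker of the proximal intestine, read 21.0, 19.9, 19.9 and 85.6, under the floor on all but the DKO-labelled array. Isx, an intestinal homeobox gene, read 217, 51.3, 195 and 109, so the Bmi1-labelled array was lower than the WT and DKO-labelled ones. The other regional factors, up to Klf5 (0.49 on the DKO-labelled array against WT), were not called. Of 34 other homeobox genes 31 were measured, 8 reached the floor and 0 were called. By comparison and direction, 2.13% to 7.96% of all genes were. The 5 tested on the DKO-labelled array against WT ran from Pitx1 (-0.59) to Isl1 (0.25). Pax6 read 24.9 on WT and 33.2 on the DKO-labelled array (0.42), both just under or below the floor. Lhx2, named after its values were seen, was just under the floor on the DKO-labelled array, at 33.2, and read 8.41 on WT.

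**Figure D4:**
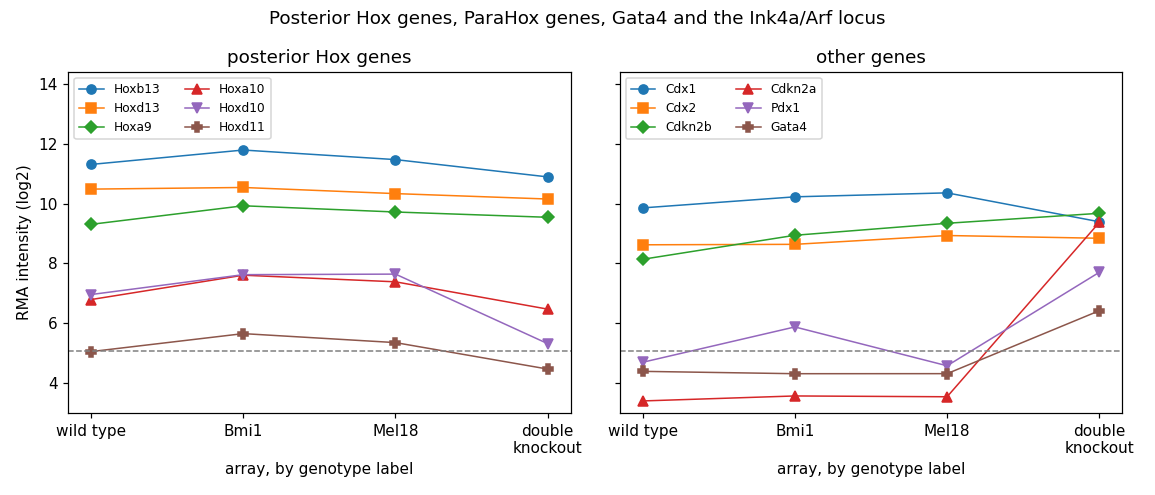
RMA intensity (log2) on the 4 arrays for 6 posterior Hox genes at left and for Cdx1, Cdx2, Cdkn2b, Cdkn2a, Pdx1 and Gata4 at right, joined by lines to follow each gene, which imply no order of the genotypes. The dashed line is the floor. Hoxd10 is lowest on the DKO-labelled array, at 39.9, where Cdkn2a reads 662, Pdx1 208.5 and Gata4 85.6.

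The labelled cell type was present on every array, with signals of other cells beside it. All 17 colon epithelium markers reached the floor, with summed signals of 152402, 126279, 145969 and 169331. Fibroblast markers (18 of 18 at the floor) summed to 8094, 4856, 8664 and 10731, and smooth muscle markers (11 of 11) to 9626, 6192, 8384 and 9581, with the Bmi1-labelled array lowest for both. On that array 7 of 17 fibroblast markers tested were lower than on WT, where 2.86% of all genes were. So were 8 of 13 macrophage and dendritic, 4 of 7 neutrophil, 2 of 11 T and NK and 2 of 17 epithelium markers. Among endothelial markers 1 of 6 was higher. On the DKO-labelled array 13 of 18 fibroblast markers were higher than on the Bmi1-labelled one, where 4.3% of all genes were. So were 6 of 8 neutrophil, 6 of 13 macrophage and dendritic, and 6 of 12 T and NK markers. The same held for 4 of 17 epithelium and 2 of 6 B and plasma cell markers. Lower there were 2 epithelium markers and 1 macrophage and dendritic marker. Mesenchyme of the gut is known to express Hox genes too. Sums for endothelial markers (7 of 10; Emcn, Pecam1 and Tek never at the floor) were 485, 474, 460 and 535, and for neuron and glia markers (2 of 8 measured) 236, 208, 220 and 218.
Neutrophil markers (8 of 12; Camp, Cxcr2, Mmp8 and Mpo never at the floor) summed to 3485, 376, 497 and 3106, macrophage and dendritic markers (13 of 14, without Itgam) to 4315, 2813, 2635 and 4546, T and NK markers (12 of 13, without Cd2) to 1411, 985, 826 and 2409, and B and plasma cell markers (6 of 8, without Pou2af1 and Tnfrsf17) to 1206, 1161, 1136 and 2252. The 4 immune sums were lower on both single-knockout-labelled arrays than on the other pair, though a sum follows its brightest members. For B and plasma cells the gap from WT was small. Jchain read 789, 786, 725 and 1686, and Ighm 127, 149, 192 and 309. Between the DKO-labelled and WT arrays the epithelium markers called were Car1 (higher) and Slc26a3 and Aqp8 (lower). The other 6 called were higher: Pdgfrb (fibroblasts), Cd3g, Gzma and Gzmb (T and NK cells), Jchain and Ighm (B and plasma cells). Of all genes 2.13% were higher and 2.19% lower. Of the other B and plasma cell markers tested, Ms4a1 (-0.66), Cd79b (-0.34) and Cd79a (-0.29) were lower and Mzb1 (0.14) higher. The median over the B and plasma cell markers tested was -0.08. The part of any of these cells in the Hox differences was not tested. In RNA from a mixture, fewer cells of a type and less RNA per cell cannot be told apart.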

How the data were processed

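RNA of 4 samples, 1 per genotype, was read on Affymetrix Mouse430_2 arrays. The authors deposited intensity values per probe set on a linear scale. Per the submitters' processing notes the tools were RMA and Affymetrix Expression Console, with no version. The range was 3.25 to 22803. Log2 was taken here with no pseudocount and no further scaling, since the design had assumed log2 values. Of 45037 probe sets, 34945 named 1 gene in the platform annotation, 932 several and 9160 none. Array medians lay between 32.1 and 34.2. Comparisons were 3 with WT and 2 between the DKO and each single knockout, with 8 alternatives. All named Hox genes follow a rule: every member, with levels for those at the floor. Of other lists, members past the size rule or at their ends are given. Of marker lists, sums and the members called between DKO and WT are given. Counts of markers called between the Bmi1-labelled array and WT or DKO were added outside this rule. Python 3.11.15, numpy 2.4.6, pandas 2.3.3 and matplotlib 3.10.9 were used. Members and lists were chosen with earlier results of these data known. The position groups, the correlation with paralog number, the promoter counts and printed windows, and the minimum size in the flagged results were chosen after values were seen. One further Hox gene is not analysed here.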

Additional observations from a re-analysis of the deposited data

Results flagged for a closer look

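For Hoxd10 and Hoxa10, adding the same label gave differences in opposite directions from WT and from the other single-knockout-labelled array, by at least 2-fold on one and 1.5-fold on the other. For Hoxd10 the Mel18-labelled array was 0.68 above WT while the DKO-labelled array was 2.31 below the Bmi1-labelled one, and the Bmi1-labelled array was 0.66 above WT while the DKO-labelled array was 2.32 below the Mel18-labelled one; the difference of the differences is -2.99 for both. For Hoxa10 the Mel18-labelled array was 0.59 above WT and the DKO-labelled array 1.13 below the Bmi1-labelled one, with a difference of -1.73. With each array centred on its genes at the floor, Hoxd10 was above WT by 0.43 (Bmi1-labelled) and 0.52 (Mel18-labelled) and Hoxa10 by 0.43 (Mel18-labelled), short of 1.5-fold. After quantile normalization Hoxd10 on the Bmi1-labelled array (0.55) and Hoxa10 on the Mel18-labelled array (0.54) fell short of it too. The second Hoxa10 probe set did not turn: it read 29.7 on WT, 32.0 (Bmi1-labelled), 46.0 (Mel18-labelled) and 44.7 (DKO-labelled). With 1 array per genotype the difference was not tested.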

How the results depend on the processing

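The alternatives changed no direction of a called Hox gene except 1. With probe sets ending in _s_at, _x_at or _a_at left out, Hoxa10 on the DKO-labelled against the Bmi1-labelled array was 0.48, and with the mean over all probe sets it was -0.33, no longer 2-fold. Centring each array on its genes at the floor gave -0.90 for Hoxa10 and -0.95 for Hoxd11, left 1 Hox gene called against the Bmi1-labelled array in place of 3, and called 2 against the Mel18-labelled array, Hoxb4 higher and Hoxd10 lower, in place of 1. The floor at percentile 75 left 0 called against WT, since Hoxd10 on WT lies below it, and 9 genes at the floor in place of 18. The 1.5-fold rule called 4 (Bmi1-labelled) and 4 (Mel18-labelled) against WT, 6 on the DKO-labelled array against WT, 5 against the Bmi1-labelled array and 7 against the Mel18-labelled array. Hoxd10 ran from -1.70 to -1.64 against WT, and stayed past 2-fold in size, under every alternative. The posterior median ran from -0.68 to -0.24 for the DKO-labelled against the Bmi1-labelled array. With no floor it takes all 14 posterior genes, and otherwise only the 7 to 10 that reached the floor. Hoxa13 and Hoxd11 are among the 10 through single-knockout-labelled arrays only. The choice of genes thus bears on the sign, and these ranges do not check it. For the Bmi1-labelled array against WT the posterior median ran from 0.17, with no floor, to 0.55. With each array centred on its genes at the floor, 5 of 9 posterior genes were above 0 in that second comparison and 4 below. Among all genes, that centring turned 687 higher and 341 lower (Bmi1-labelled against WT) into 347 and 561, 374 and 296 (Mel18-labelled against WT) into 234 and 406, 515 and 953 (DKO-labelled against Bmi1-labelled) into 825 and 519, and 456 and 538 (DKO-labelled against Mel18-labelled) into 614 and 364. Depth is not known for arrays; values near 33.4 carry mostly background. No paired analysis was possible because each genotype has 1 array.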
